A study of Sus scrofa with 6 samples.

Results

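Genes of the transforming growth factor beta (TGF-beta) pathway were followed through 12 array probes in pig femoral arteries: the ligand genes TGFB1 and TGFB3, the receptor gene TGFBR1, the signal transducer gene SMAD3 and the target gene ID2. Members were all non-control probes whose design accession was a pig RefSeq transcript of one of these 5 genes. The 5 genes, of 2384 that could be named on the array, held 12 of its 43603 non-control probes: 2 for TGFB1 (NM_214015), 2 for TGFB3 (NM_214198), 1 for TGFBR1 (NM_001038639), 2 for SMAD3 (NM_214137) and 5 for ID2 (NM_001037965). Each member probe was printed once per array. The arteries (Sus scrofa) were sampled ex vivo at a puncture on the left side, as total RNA. TAG, a vascular glue, had closed the puncture in 3 of them, and Exoseal, a marketed vascular closure device, in the other 3. The labels give no untreated artery, age, strain, time after closure or animal of origin, so p-values here measure the spread between samples, which may in part be technical. The question was whether these genes read differently after the glue and after the device.

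TGF-beta is secreted as a latent dimer that is held in the extracellular matrix until it is activated. The active ligand brings together a type II receptor and the type I receptor encoded by TGFBR1, which phosphorylates SMAD3 and its relative SMAD2. These enter the nucleus with the shared partner SMAD4 and act on target genes, while the related bone morphogenetic proteins (BMPs) act through other SMADs and are strong inducers of ID2. In the artery wall the pathway is known for its effects on smooth muscle contractile genes, matrix synthesis and scar formation after injury.

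Samples were grouped by title. The title of Exoseal replicate 1 names Exoseal, but its treatment characteristic names TAG. In the file headers this array shares a scan with the 3 TAG arrays, and that scan is called slide 1 here. Slide 2 stands for the scan shared by Exoseal replicates 2 and 3. That a scan equals a slide is inferred. The scanner flagged fewer probes as well above background on TAG arrays (37.4% ± 3.38, SD, n = 3) than on Exoseal arrays (64.3% ± 5.70, SD, n = 3). The 75th percentile of the processed signal, to which each array was scaled, was 19.3 to 36.4 in the TAG group and 61.0 to 151 in the Exoseal group. After scaling, Exoseal replicate 1 had median absolute log2 differences of 0.944, 1.03 and 1.09 from TAG replicates 1, 2 and 3. They were 1.52 and 1.19 from Exoseal replicates 2 and 3, which were 0.825 apart. Its Pearson's r was 0.830 to 0.853 with TAG arrays, and 0.791 and 0.854 with those Exoseal arrays. On it 60.6% of probes were above background, and at most 41.2% on a TAG array. Label and slide cannot be told apart in these values. Of the 15 probes of smooth muscle genes (ACTA2, CNN1, DES, MYLK, TPM2), 14 to 15 were above background on each TAG array and 15 on each Exoseal array. Of the 7 probes of endothelial genes (CDH5, NOS3, PECAM1), 5 were above background on each TAG array and 5 to 7 on the Exoseal arrays.

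One of the member probes passed the test between the groups. TGFB3 probe A_72_P621617 was 7.03-fold higher in TAG (n = 3 arrays per group). The other TGFB3 probe, A_72_P223537, and the tested probes of TGFB1, SMAD3 and ID2 did not pass, with log2 fold changes between -0.95 and 0.73. The TGFBR1 probe, which was not detected on any TAG array, did not pass either. The count was 1 of 11 tested probes (0 fell), against 10.8% of all 22722 probes tested (7.06% higher and 3.69% lower in TAG). That count is near the share over the whole array. The median log2 fold change was -0.41 over the 11 member probes and 0.08 over all probes tested. The first counts the TGFBR1 probe and 5 probes of 1 gene, ID2. The second counts 4193 probes not detected on any array of a group. All these values are from limma, with adjustment over all probes tested and a threshold of 0.05.

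Detection differed between the members. Of the 12 probes, 9 were well above background on all 6 arrays: 1 of TGFB1, both of TGFB3, 1 of SMAD3 and all 5 of ID2. TGFB1 probe A_72_P442849 was detected on none of the 6 arrays and was not tested. TGFBR1 probe A_72_P035676 was above background on 3 of 3 Exoseal arrays and 0 of 3 TAG arrays, so it passed the filter on dim probes (above background on at least 3 of 6 arrays) through Exoseal alone. SMAD3 probe A_72_P444518 was above background on 1 of 3 TAG arrays and 3 of 3 Exoseal arrays. In all, 9 to 10 member probes were detected on each TAG array and 11 on each Exoseal array. These counts depend in part on slide. The lowest signal called well above background was 9.19 to 11.7 on slide 1 and 3.41 to 3.96 on slide 2, which held Exoseal arrays alone.

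**Figure D1:**
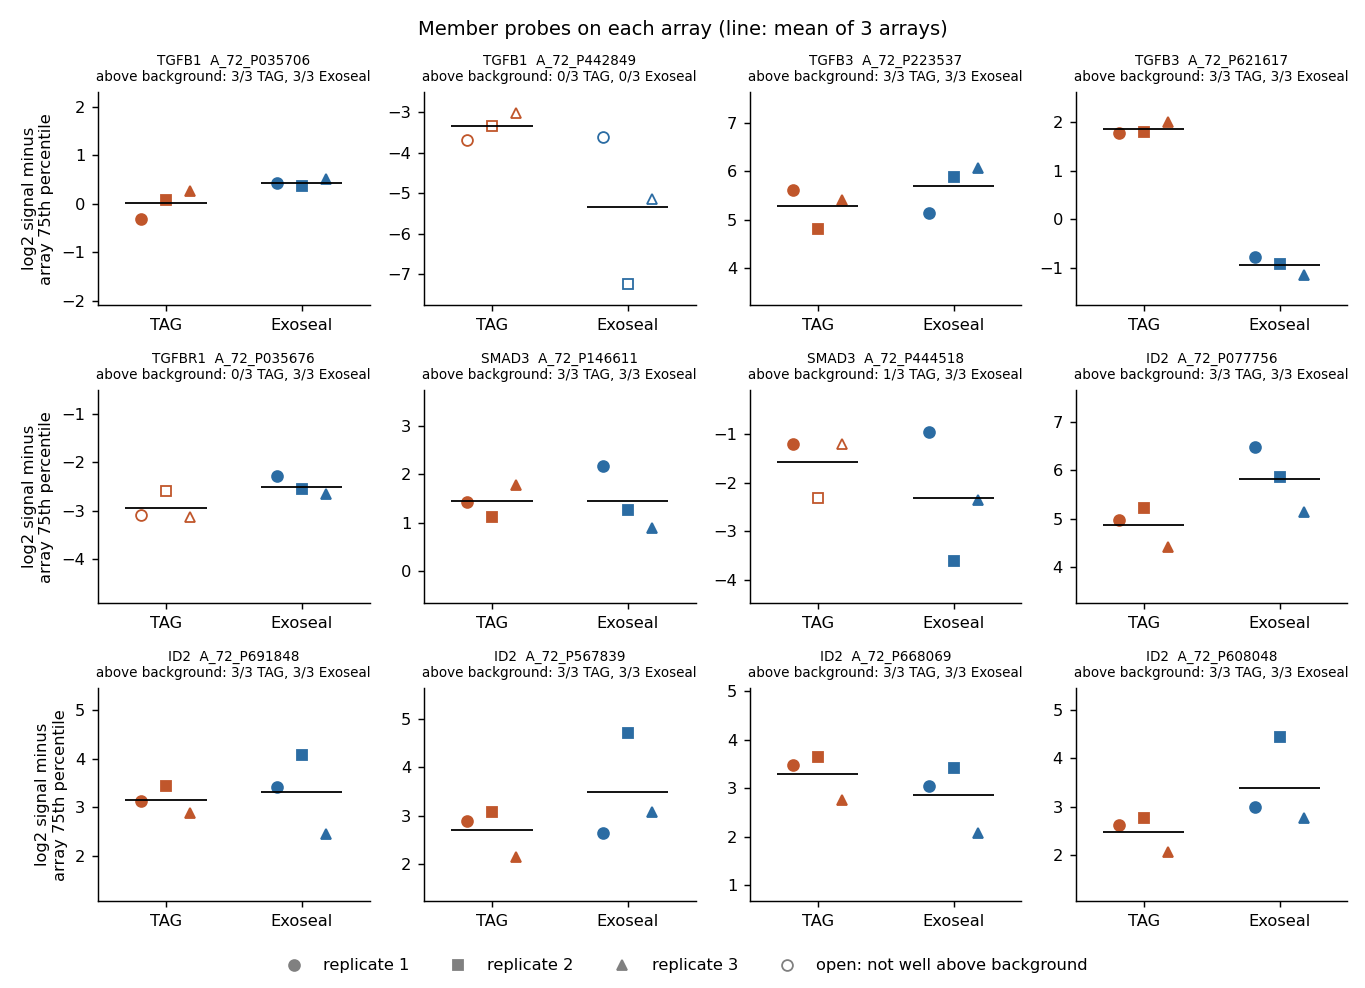
Scaled log2 signal (log2 of the processed signal less that array's 75th percentile, vertical axis) of the 12 member probes on the 3 TAG and 3 Exoseal arrays, with 1 point per array, open where the probe was not well above background, and a line at the mean of 3 arrays. The groups are far apart for TGFB3 A_72_P621617 (means 1.86 and -0.95) and overlap for all others except TGFB1 A_72_P035706.

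TGFB3 encodes a secreted TGF-beta ligand. Probe A_72_P621617 had processed signals of 126, 89.3 and 77.2 on TAG replicates 1, 2 and 3, and of 39.8, 79.9 and 27.5 on Exoseal replicates 1, 2 and 3. Before scaling, Exoseal replicate 2 lay just above TAG replicate 3. Scaled to each array's 75th percentile, the log2 signals were 1.79, 1.80 and 2.00 in TAG and -0.78, -0.92 and -1.15 in Exoseal. All TAG arrays were then above all Exoseal arrays, with means of 1.86 ± 0.12 and -0.95 ± 0.19 (SD, n = 3). The log2 fold change was 2.81 ± 0.40 (SE, 95% interval 1.91 to 3.71, limma adjusted p = 0.0222). Of the 12887 probes above background on all 6 arrays, 1.34% had a log2 fold change at least this large, and 9.72% passed the test in either direction.

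Under other scalings this probe had 2.95 with the percentile taken over probes detected on all arrays, 2.35 with median scaling, 2.84 with quantile normalisation and 2.83 in the authors' deposited table, and it passed in each (limma adjusted p from 0.00992 to 0.0403). Normexp with quantile normalisation gave 1.56 and an adjusted p of 0.0141. On slide 1 the value was 2.64, with 3 TAG arrays against Exoseal replicate 1 alone, the array with conflicting labels (adjusted p = 0.0294, with the spread taken from the TAG arrays and the lone Exoseal array assumed to vary like them). Slide 2 held Exoseal arrays alone, so the fit with slide as a block rested on that same contrast (2.64, adjusted p = 0.0136, with the spread taken also from Exoseal replicates 2 and 3) and is no separate evidence. With the array of conflicting labels left out it had 2.90 (adjusted p = 0.000189), and with that array counted as TAG 2.24 (0.0475). In both of these fits group and slide were the same split, so neither can tell treatment from slide. Leaving out any of the other 5 arrays gave 2.71 to 2.85, and the call was lost each time (adjusted p from 0.0507 to 0.120). In those 5 limma fits 0 probes of the array passed, with 4573 to 6426 at an unadjusted p under 0.05.

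The second TGFB3 probe, A_72_P223537, read the same RefSeq transcript and did not follow the first. Its processed signals were 1789, 718 and 814 in TAG and 2391, 8819 and 4074 in Exoseal. Scaled, these became 5.62, 4.80 and 5.40 in TAG and 5.13, 5.87 and 6.06 in Exoseal, and the groups overlapped. The log2 fold change was -0.41 ± 0.46 (95% interval -1.45 to 0.63, limma adjusted p = 0.588), and it was 0.15 within slide 1. As the mean of both probes TGFB3 had 1.20 and did not pass (limma adjusted p = 0.0890).

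The 2 TGFB3 probes can be set against each other within an array, where scaling between arrays plays no part. The log2 difference A_72_P223537 minus A_72_P621617 was 3.83, 3.01 and 3.40 on the TAG arrays and 5.91, 6.79 and 7.21 on the Exoseal arrays. The groups did not overlap, and their means of 3.41 ± 0.41 and 6.64 ± 0.66 (SD, n = 3) gave a shift of -3.23 (TAG minus Exoseal), or 9.35-fold in the ratio of the probes. By an exact permutation test, two-sided, p was 0.1, which 3 against 3 arrays cannot go below (0.183 adjusted over 11 pairs of member probes). Within slide 1 the shift was -2.50, and leaving out 1 array at a time gave -3.59 to -2.94. Over all 4238 pairs of probes of 1 gene with both probes above background on all 6 arrays (435 genes), the median size of this shift was 0.691 and 1.30% of pairs had one at least as large as TGFB3. Groups that do not overlap were common among such pairs (41.0%). This comparison with all pairs was chosen after the TGFB3 values had been seen.

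**Figure D2:**
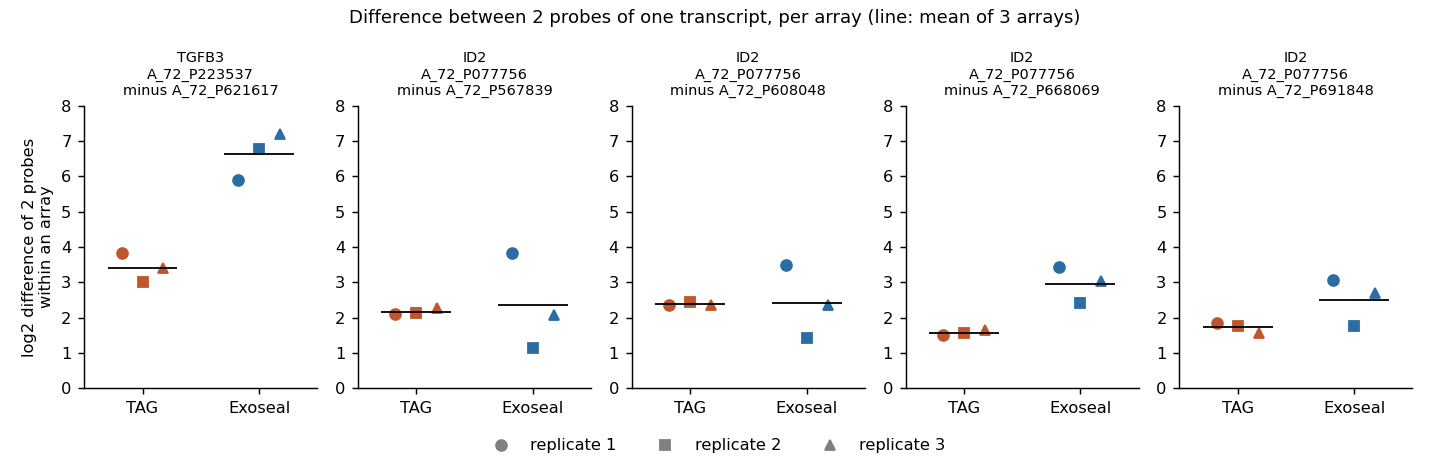
Log2 difference between 2 probes of the same transcript within each array (vertical axis, log2 units), for the pair of TGFB3 probes and for ID2 A_72_P077756 minus each other ID2 probe, with 1 point per array and a line at the mean of 3 arrays. The TGFB3 pair is at 3.01 to 3.83 on TAG arrays and 5.91 to 7.21 on Exoseal arrays, while of the 4 ID2 pairs shown only the one with A_72_P668069 has groups that do not overlap.

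TGFB1 encodes the ligand released by platelets and made by most cells of a healing wall. Probe A_72_P035706 had processed signals of 29.3, 27.1 and 23.1 in TAG and 91.7, 193 and 86.9 in Exoseal. Scaled, it had -0.31, 0.08 and 0.26 in TAG and 0.42, 0.36 and 0.51 in Exoseal. Every TAG array was below every Exoseal array, and the groups did not overlap for 36.4% of all probes tested. The means were 0.01 ± 0.29 and 0.43 ± 0.08 (SD, n = 3), and the log2 fold change of -0.42 ± 0.41 (95% interval -1.34 to 0.49) did not pass (limma adjusted p = 0.522). It kept its sign in 19 of 20 alternatives, with -0.42 within slide 1 and -0.89 with median scaling. The exception was the mean with the undetected second probe, 0.78.

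TGFBR1, the type I receptor that phosphorylates SMAD3, had 1 probe. Its processed signals were 4.28, 4.25 and 2.20 in TAG, none well above background, and 13.9, 25.5 and 9.69 in Exoseal. Scaled, they were -3.09, -2.60 and -3.13 in TAG and -2.29, -2.56 and -2.65 in Exoseal. The probe did not pass (limma adjusted p = 0.516), and no fold change is given, because the TAG signals were below the range in which the scanner called probes detected on those arrays. The limma test used the same signals, so its result cannot show whether TGFBR1 differed. The lowest signal called well above background was 9.19 to 10.9 on the TAG arrays and 11.7 on Exoseal replicate 1, all on slide 1. On slide 2 it was 3.96 and 3.41, for Exoseal replicates 2 and 3. Detection in TAG and Exoseal was thus judged at unlike signals, in part by slide.

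SMAD3, the transducer that carries the receptor's signal to the nucleus, had 2 probes. A_72_P146611 had processed signals of 98.1, 56.1 and 66.4 in TAG and 311, 360 and 114 in Exoseal. Scaled, it had 1.43, 1.12 and 1.78 in TAG and 2.18, 1.26 and 0.90 in Exoseal. The Exoseal arrays spread around the TAG arrays, both means were 1.45, and the log2 fold change was 0.00 ± 0.48 (95% interval -1.08 to 1.09, limma adjusted p = 0.999). The Exoseal array on slide 1 was the highest of all, and within slide 1 the value was -0.74.

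The second SMAD3 probe, A_72_P444518, was close to background. Its processed signals were 15.8, 5.14 and 8.36 in TAG, of which the first alone was detected, and 35.5, 12.3 and 12.0 in Exoseal. The log2 fold change was 0.73 ± 0.69 (limma adjusted p = 0.512) and -0.63 within slide 1. It passed in 1 alternative, the limma fit with array weights (0.87, adjusted p = 0.0439), in which 54.5% of all probes passed. The weights were 0.191, 0.250 and 7.88 for Exoseal replicates 1, 2 and 3. The Exoseal side of that fit thus rested mainly on replicate 3.

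ID2 encodes a helix-loop-helix protein that binds other such factors and keeps them from DNA. All 5 of its probes were detected on every array, and none passed in the fit without array weights. With array weights, where 54.5% of all probes passed, A_72_P668069 had 1.17 and passed (limma adjusted p = 0.00642). The Exoseal side of that fit rested mainly on Exoseal replicate 3, the lowest array for this probe. The log2 fold changes were -0.95 ± 0.49 for A_72_P077756, -0.90 ± 0.54 for A_72_P608048 and -0.77 ± 0.60 for A_72_P567839. They were -0.17 ± 0.51 for A_72_P691848 and 0.44 ± 0.50 for A_72_P668069. The limma adjusted p ran from 0.224 to 0.857, and the groups overlapped for every probe. As the mean of its probes ID2 had -0.47 (limma adjusted p = 0.567).

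The ID2 probe with the largest difference, A_72_P077756, had processed signals of 1150, 949 and 413 in TAG and 6104, 8693 and 2138 in Exoseal. Scaled, these were 4.98, 5.21 and 4.42 in TAG and 6.48, 5.85 and 5.13 in Exoseal. The lowest Exoseal array lay between the TAG arrays. This probe had -1.61 within slide 1 and -0.62 without Exoseal replicate 1, and it was below 0 in all 20 alternatives.

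The Exoseal arrays disagreed among themselves over ID2, and did so differently from probe to probe. Exoseal replicate 1 was the highest array for A_72_P077756. Exoseal replicate 2 was the highest for A_72_P691848 (4.08), A_72_P567839 (4.71) and A_72_P608048 (4.43). For A_72_P668069 the highest array was TAG replicate 2 (3.65) and the lowest Exoseal replicate 3 (2.09). A_72_P567839 had scaled signals of 2.89, 3.07 and 2.15 in TAG and 2.65, 4.71 and 3.07 in Exoseal, and its log2 fold change was 0.06 within slide 1. A_72_P608048 had 2.63, 2.77 and 2.07 in TAG and 2.99, 4.43 and 2.76 in Exoseal.

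Within an array, the distances between ID2 probes varied little on the TAG arrays (SD of 0.02 to 0.25 over the 10 pairs) and by 0.17 to 1.37 on the Exoseal arrays, which came from both slides. A_72_P077756 minus A_72_P567839 was 2.10, 2.13 and 2.27 in TAG and 3.83, 1.14 and 2.07 in Exoseal. A_72_P567839 minus A_72_P668069 was -0.59, -0.58 and -0.61 in TAG and -0.40, 1.28 and 0.98 in Exoseal. Of the 10 pairs of ID2 probes, 5 had groups that did not overlap, near the 41.0% of all same-gene pairs. The largest shift between the groups was -1.39, for A_72_P077756 and A_72_P668069 (exact permutation p = 0.1, or 0.183 adjusted over 11 pairs). The TGFB3 shift was -3.23.

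**Figure D3:**
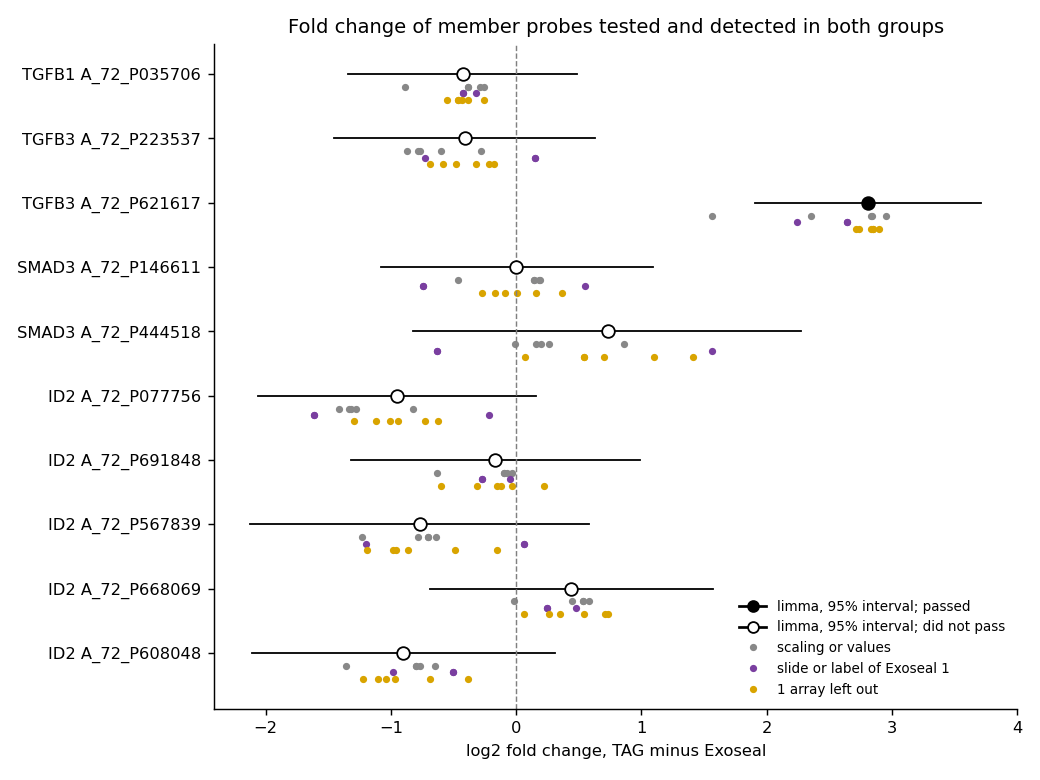
Log2 fold change, TAG minus Exoseal (horizontal axis), of the 10 member probes tested and detected in both groups (TGFBR1 is left out), as the limma estimate with its 95% interval, filled where the adjusted p was under 0.05. Small points give the value under other scalings or the authors' table (grey), with slide 1 alone, slide as a block or the other label of Exoseal replicate 1 (purple), and with 1 array left out (yellow). TGFB3 A_72_P621617 stays between 1.56 and 2.95 in these, and the intervals of all the others include 0.

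Other genes of the pathway, taken from a list of 95 names, were represented by 67 tested probes of 28 genes. Of these probes 18 rose and none fell at the scaling used, in 9 of 28 genes, where 7.06% of all probes tested rose and 3.69% fell. The median log2 fold change was 0.84 (0.08 over all probes), with 4 of the 67 probes not detected on any TAG array. As probes that rose, 14 of 28 belonged to targets, 2 of 4 to SMADs and 2 of 13 to inhibitors and modulators. None of 7 ligand probes, 4 receptor probes or 11 probes of latent complex and activation genes passed. The number that rose was 6 with median scaling (2.17% of all probes) and 16 with quantile normalisation (7.17% of all probes), with none that fell in either. With normexp and quantile normalisation 15 rose and 1 fell, where 1602 probes of the array passed, 64.17% of them higher in TAG. Of 54 probes above background on all 6 arrays, fitted alone, 20 rose and 2 fell, where 2118 of all 12887 such probes passed. Of those 2118, 74.03% were higher in TAG. With 1 value per gene, 5 of 28 genes rose by the brightest probe and 4 of 28 by the mean of the probes, and none fell. Calls over the array were 2138 by the brightest probe (64.27% higher in TAG) and 1993 by the mean (64.93%). With slide as a block 6 rose and 1 fell, against 5.03% and 4.01% of all probes. Without Exoseal replicate 1, 33 rose and 3 fell, against 21.1% and 12.8% of all probes. In that fit group and slide were the same split and cannot be told apart. Without any other single array none of the list passed, and 0 probes of the array did.

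Among targets, ACTA2, the smooth muscle actin, rose on 4 of 4 probes, by 1.82 to 2.54 on the log2 scale, and none of the 4 passed with median scaling (limma adjusted p from 0.0518 to 0.102). CTGF, a matricellular growth factor, rose by 2.42 ± 0.48 (limma adjusted p = 0.0254) on its single probe, with 1.96 (0.0519) under median scaling. COL5A1, a fibrillar collagen chain, rose by 3.25 ± 0.65 on 1 of 3 probes, with 1.63 and 1.91 on the others. That COL5A1 call was lost with quantile normalisation (1.86, limma adjusted p = 0.0889), and the value was 2.33 within slide 1. SMAD4, the shared partner of SMAD3, rose on 2 of 4 probes (2.82 ± 0.64 and 3.09 ± 0.53), and its other probes had -1.27 and 0.59. The SMAD4 probe at -1.27 was the brightest, with scaled means of 1.77 in TAG and 3.04 in Exoseal, and did not pass (limma adjusted p = 0.115). Those that rose were dim, with means of -0.15 and -0.25 in TAG and -2.97 and -3.34 in Exoseal. The second was above background on 2 of 3 Exoseal arrays. Of the SMAD4 probes that rose, the first had 1.30 within slide 1, and the second had 3.88 there and did not pass with median scaling (2.63, limma adjusted p = 0.0612). DCN, decorin, a matrix proteoglycan that binds TGF-beta, rose on 2 of 4 probes (1.91 ± 0.46 and 1.86 ± 0.44), and neither passed with median scaling (1.45 and 1.40, limma adjusted p = 0.135 and 0.131). Probes of the same gene gave different calls for SMAD4, DCN and COL5A1, as they did for TGFB3.

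In the roles where nothing passed, the smallest p among ligands belonged to INHA, the inhibin alpha subunit (1.37 ± 0.44, limma adjusted p = 0.0722), and AMH, anti-Müllerian hormone (1.60 ± 0.72, 0.167). The other AMH probes had 0.46 and -0.42, and within slide 1 the first had -0.16. Among receptors these were ENG, endoglin (0.84 ± 0.69, 0.442), and BMPR1B, a BMP receptor (0.83 ± 0.98, 0.612), whose other probe had -0.16. Within slide 1 ENG had -0.68 and this BMPR1B probe 2.51. For latent complex and activation these were ITGAV, the integrin alpha V chain (-1.93 ± 0.58, 0.0605), and PLAT, tissue plasminogen activator (-1.50 ± 0.46, 0.0648). The other ITGAV probes had 0.16, 0.25 and 1.37, of which the last passed with quantile normalisation (1.45, limma adjusted p = 0.0440). The other PLAT probes had -1.48 to -0.59.

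**Figure D4:**
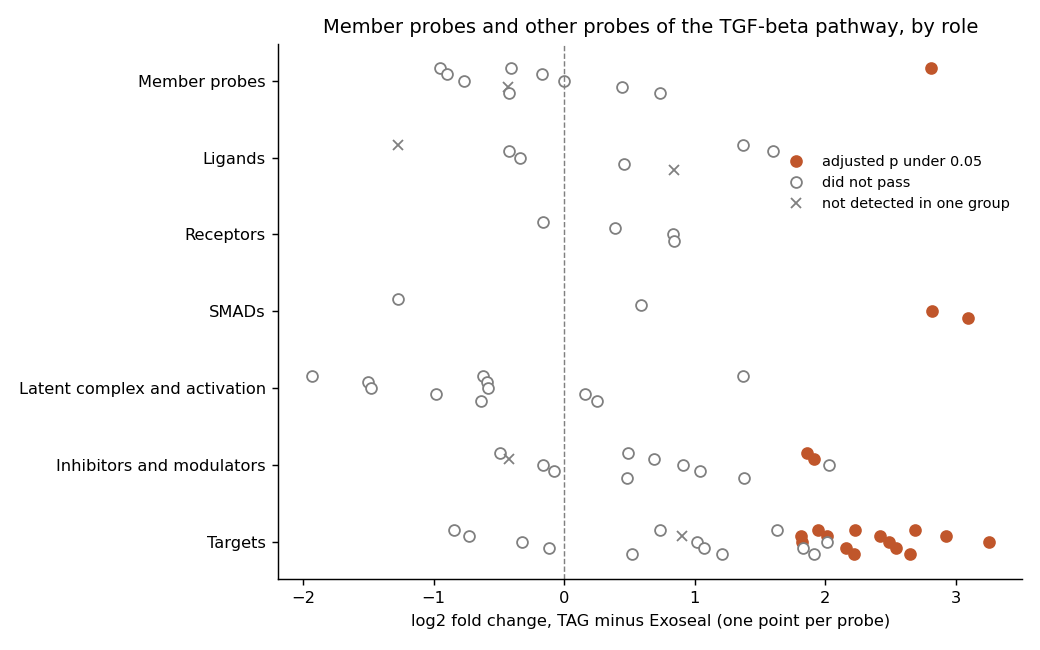
Log2 fold change, TAG minus Exoseal (horizontal axis), of the 11 tested member probes and of 67 tested probes of other TGF-beta pathway genes by role, with 1 point per probe, filled where the limma adjusted p was under 0.05 and drawn as a cross where the probe was not detected on any array of a group (1 member probe and 4 others). Filled points are 1 member probe (TGFB3 A_72_P621617), 2 SMAD4 probes, 2 DCN probes and 14 target probes, all to the right of 0.

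Markers of several cell types also differed between the groups, and in whole tissue fewer cells of a type and less RNA per cell cannot be told apart. ACTA2, CNN1 and DCN stood in both the pathway list and the marker lists, so their probes are counted in both. Over the whole array 37.4% of probes were above background on TAG arrays and 64.3% on Exoseal arrays, as group means. Of all probes tested, 7.06% rose and 3.69% fell. The summed scaled signal (signal over the array's 75th percentile) of the smooth muscle probes was 636 to 769 on TAG arrays and 298 to 332 on Exoseal arrays, and 8 of 15 rose. The 14 macrophage and monocyte probes (AIF1, C1QA, CD14, CD163, LYZ, TYROBP) summed to 21.0 to 26.9 in TAG and 63.3 to 139 in Exoseal, with 7 above background on each TAG array, 12 to 13 on Exoseal arrays and 3 of 12 tested that fell. The 5 platelet probes (GP9, ITGA2B, ITGB3, PPBP) summed to 669 to 704 in TAG and 141 to 336 in Exoseal, and 1 of 4 tested rose. The 4 DCN probes, the only fibroblast marker on the array by name, summed to 342 to 370 and 183 to 215. The 7 endothelial probes summed to 7.35 to 11.9 in TAG and 15.2 to 53.8 in Exoseal, and of 5 tested 2 rose and 1 fell. Of 8 T and NK cell probes 1 was above background on each TAG array and 5 on each Exoseal array, with none for CD4 on any array, sums of 1.95 to 2.04 and 0.899 to 2.63, and none of 4 tested that passed. The 12 fat probes (ADIPOQ, FABP4, LEP, PLIN1) summed to 141 to 174 in TAG and 200.3 to 239 in Exoseal, with 4 to 6 above background on TAG arrays, 8 to 10 on Exoseal arrays and 1 of 7 tested that fell. Of the 40 skeletal muscle probes (ACTA1, CKM, MYH1, MYH2, TNNT3), 14 to 30 were above background on TAG arrays and 32 to 36 on Exoseal arrays. Their sums overlapped (151.5 to 217 and 54.7 to 245), and 3 of 32 tested rose. Among reference genes, 23 probes of B2M, EEF1A1, HPRT1 and PPIA had a median log2 fold change of 1.13, of which 2 rose. Under the other scalings that median was 0.50 to 1.26, and by the brightest probe of each of these genes it was -0.31. The part of any of these in the TGFB3 value was not tested.

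The genes whose pattern over the 6 arrays was most like that of a member probe were found among 2255 named probes detected on all arrays, by Pearson's r as a description. For TGFB3 A_72_P621617 these were RPLP0, a ribosomal protein gene (r = 0.998), IGFBP6, an IGF-binding protein gene (0.997), and DSTN, which encodes destrin (0.996). For TGFB3 A_72_P223537 they were SLPI (0.979), SLA-DQA1 (0.972) and CPE (0.971). For TGFB1 A_72_P035706 they were DNAJC14 (0.970), S1PR5 (0.925) and GPANK1 (0.917), and for SMAD3 A_72_P146611 RING1 (0.936), RPL32 (0.932) and ARPP19 (0.904). For the ID2 probes the nearest genes were PPP2R2A for A_72_P077756 (0.982), PDCD10 for A_72_P691848 (0.992), APP for A_72_P567839 (0.991), BTG2 for A_72_P668069 (0.962) and ATP5A1 for A_72_P608048 (0.991). With 6 arrays in 2 groups and 2 slides, a high r is reached by many genes.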

How the data were processed

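RNA of 6 pig artery samples was labelled with Cy3 and hybridised to Agilent 1-colour arrays, per the labels' protocols. The deposited scanner files give an intensity for each spot, made with Agilent Feature Extraction 11.0.1.1 per the file headers, with the processed signal background-subtracted within each array and not scaled between arrays. A deposited table holds the authors' processed values, on a log2 scale judging from the values, with column medians of 3.38 to 3.39 over the probes used, neither centred per gene nor a ratio. The sources used here do not give how they were normalised.

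Control spots and outlier spots were left out, which left 43380 of 43603 probes. Log2 processed signal minus each array's 75th percentile was fitted per probe with limma 3.58.1 in R 4.3.3 (two-sided, no covariates) for the 22722 probes well above background on at least 3 of 6 arrays, with Benjamini-Hochberg adjustment. The number of arrays limits the precision. Errors of fold changes are standard errors. Probes were named by unversioned RefSeq accession through a table for assembly Sscrofa11.1 (5435 probes), for names alone. No genome build is stated for the design, so positions are left out. Normexp used an offset of 50 and median spot signals, since the files used have no mean signal. Scripts were tested on simulated data. Whether replicate numbers pair the samples is not known, since the labels give no animal of origin.

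Genes named are all members, up to 4 genes past the threshold per role and direction (or the 2 of smallest p where none passed), and the 3 most alike in pattern (the nearest 1 for ID2 probes). A gene that this rule names is not reported here. Members and lists were chosen with earlier results of these data known. The labels' description field speaks of another experiment and was not used.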

Additional observations from a re-analysis of the deposited data

How the results depend on the processing

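Of the 11 member probes, TGFB3 A_72_P621617 was above 0 under all 18 alternatives (1.56 to 2.99) and passed in 11. It did not pass without the filter on dim probes (2.81, limma adjusted p = 0.0545). The member count of 1 became 0 there, 0 with the replicate block, 3 with array weights, and 0 by the brightest probe or the mean of the probes of a gene. Leaving out 1 array at a time gave 0 to 1. The count over all probes, 2443, became 1049 with median scaling, 1602 with normexp and quantile normalisation, 0 without the filter (14128 at an unadjusted p under 0.05), 3781 with Exoseal replicate 1 counted as TAG and 12380 with array weights. Leaving out 1 array at a time gave 0 to 7717, with 4573 to 9990 at an unadjusted p under 0.05. The 7717 came without Exoseal replicate 1. Group and slide were the same split in that fit, and also with that array counted as TAG. Of the 2443 calls, 65.7% were higher in TAG, and 46.9% with median scaling, 51.7% with quantile normalisation and 58.3% in the authors' table. The median over all probes was 0.08, moving to -0.39 with median scaling and 0.21 with the percentile over detected probes. At most 41.2% of probes were above background on a TAG array, and at least 60.6% on an Exoseal array. Median scaling thus set a mostly undetected level in TAG against a mostly detected one in Exoseal.

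Signs turned for probes that did not pass. Within slide 1, as with slide as a block, TGFB3 A_72_P223537 had 0.15, SMAD3 A_72_P146611 -0.74, SMAD3 A_72_P444518 -0.63 and ID2 A_72_P567839 0.06. As the mean of probes TGFB1 had 0.78 and TGFB3 1.20. SMAD3 A_72_P444518 had -0.01 with normexp and quantile normalisation, and ID2 A_72_P691848 0.62 with array weights and 0.22 without Exoseal replicate 2. ID2 A_72_P668069 had -0.02 with median scaling. SMAD3 A_72_P146611, at 0.00, took the other sign in as many alternatives as not (same sign in 10 of 20, -0.74 to 0.55). With array weights, where Exoseal replicate 3 carried most of the Exoseal weight, SMAD3 A_72_P444518 (0.87) and ID2 A_72_P668069 (1.17) passed. The cause was not tested. The shift between the TGFB3 probes was -3.23, and -2.47 with normexp and -2.50 within slide 1.

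With replicate number as a block TGFB3 A_72_P621617 had 2.81 (limma adjusted p = 0.0531), and 0 probes passed (6381 at an unadjusted p under 0.05). Deviations of same-numbered samples correlated at -0.182, 0.0888 and -0.0698. With 3 arrays per group and 2 slides, these values cannot show whether the samples were paired.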
